A study of Rattus norvegicus with 6 samples.

Results

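The rows described here are those of 5.8S ribosomal RNA and the stretch of the rat gene table that surrounds its reference gene, Rn5-8s, in RNA pulled down from GH4C1 cells. They were taken by name and by place in the table. All 40 rows named 5_8S_rRNA were included. To these was added the unbroken run of 22 rows around Rn5-8s whose names are built from contig accessions (AABR or AC numbers), end in rRNA or are Rn5-8s itself. One row belongs to both sets, which makes 61 members of 32883 rows. The stretch was chosen by its shares of the library counts, which are large and differ between the oligonucleotide pools compared here. Differences between the pools in these rows are therefore descriptions. No p-value is given for a member, and counts of members called by the fit over all rows support nothing.

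GH4C1 cells, labelled wild type, are a cultured somatolactotroph line from a rat pituitary tumour that makes prolactin and growth hormone. All cells were treated with psoralen, which crosslinks base-paired strands, and the study sought RNAs bound directly to the long noncoding RNA Neat1. RNA was retrieved with oligo pool A or oligo pool B, each with 3 libraries (replicates A1 to A3 and B1 to B3), sequenced as strand-specific paired reads of 150 bases. The labels used here give neither the oligonucleotide sequences nor the role of each pool, and input RNA was not analysed here. Nothing states that libraries came from separate cultures, so p-values measure only the spread between these samples, which may be technical.

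Ribosomal RNA is made in the nucleolus by RNA polymerase I as a long precursor that contains the 18S, 5.8S and 28S RNAs in this order, divided by internal transcribed spacers. The 5.8S RNA is cut out of the precursor, trimmed at both ends and base-paired to the 28S RNA in the large ribosomal subunit. Its genes are repeated many times, and assemblies also hold single or partial copies outside the arrays. Reads from near-identical copies cannot be assigned with certainty, so the division of counts among the members is uncertain.

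The gene names support only part of the label of a ribosomal DNA block. Within the run, Rn5-8s and 1 row named 5_8S_rRNA are named for ribosomal RNA, and the other 20 rows carry contig-based names without a product. RefSeq's genes of the GRCr8 assembly, used here only for names, include Rn5-8s with a length of 156 bases and also Rn45s, Rn18s and Rn28s, of which none is a row of the count table. Only 1 of the 61 members, Rn5-8s, matched that list by name. The stretch is therefore called the run around Rn5-8s, and no product is assigned to its unnamed rows. Their lengths do not come with the table, so values of different rows are shares of counts and not levels of transcripts.

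Total counts were between 1826390 and 3685899 per library. Prl, Gh1 and Pou1f1, which mark the growth hormone and prolactin lineage, summed to 1011 to 1092 CPM (counts per 1000000 counts of the library) with pool A and to 703 to 903 CPM with pool B. Of 6 markers of other pituitary lineages, Fshb and Tshb are listed at 0 in every library, and all 6 together reached 14.6 to 26.0 CPM with pool A and 51.5 to 54.5 CPM with pool B. Both sums thus differed between the pools compared below, but single genes did not all follow them. Prl had 680 to 759 CPM with pool A and 386 to 498 CPM with pool B. Gh1 overlapped, at 167 to 172 and 149 to 187 CPM. Pou1f1 had 139 to 167 CPM with pool A and 167 to 227 CPM with pool B. Lhb made up most of the second sum, at 9.10 to 16.0 CPM with pool A and 40.0 to 45.0 CPM with pool B. The part of these markers in the results was not tested.

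On average the run around Rn5-8s took up 18.5% ± 4.9 (SD, n = 3) of a pool A library and 8.20% ± 2.57 (SD, n = 3) of a pool B library. With pool A its share was 19.4% (95% Wilson interval 19.34% to 19.42%) in replicate 1, 22.9% (22.84% to 22.95%) in replicate 2 and 13.3% (13.23% to 13.31%) in replicate 3. With pool B it was 11.1% (11.02% to 11.09%), 6.07% (6.04% to 6.11%) and 7.49% (7.45% to 7.52%). All pool A libraries lay above all pool B libraries, but the highest pool B library came close to the lowest pool A library. The intervals cover counting error only, and they are far narrower than the spread between libraries of the same pool. The amount of RNA in the cells and its recovery by the pull-down cannot be told apart in these values, nor can fewer cells and less RNA per cell.

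**Figure D1:**
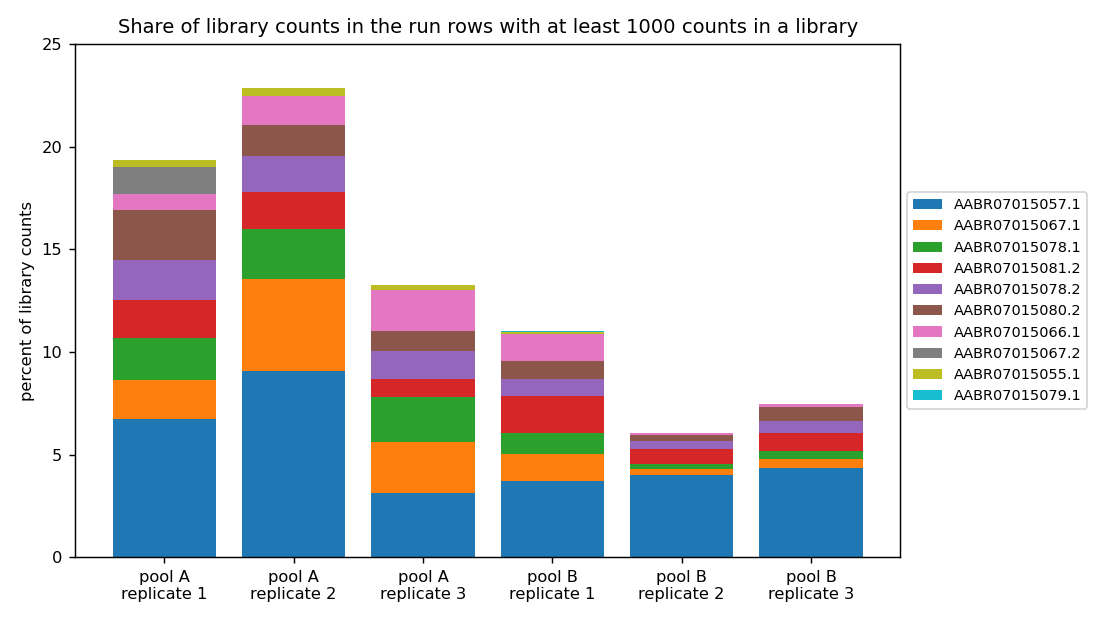
Percent of library counts (vertical axis, from 0) in each of the 6 libraries, stacked by row, for the run rows that reached 1000 counts in a library. The lowest, blue segment, AABR07015057.1, is of similar height in pool A replicate 3 and the 3 pool B libraries, while most segments above it are thinner in pool B replicates 2 and 3.

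Nearly all of these counts lay in a few rows. Of the 22 rows, 8 had at least 10 counts in every library, and they held between 93.0% and 99.99% of the run's counts. Of all rows of the table, 6 of the 10 with the highest mean CPM were run rows. At the other end, AABR07015064.1 and AABR07015087.1 had no count in any library. Just outside the run, Nwd2 before it had between 1 and 11 counts and Slc25a52 after it at most 1. Just inside, AABR07015040.1 at the start had between 3 and 10 counts, and the 5_8S_rRNA row at the end had between 4 and 110.

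**Figure D2:**
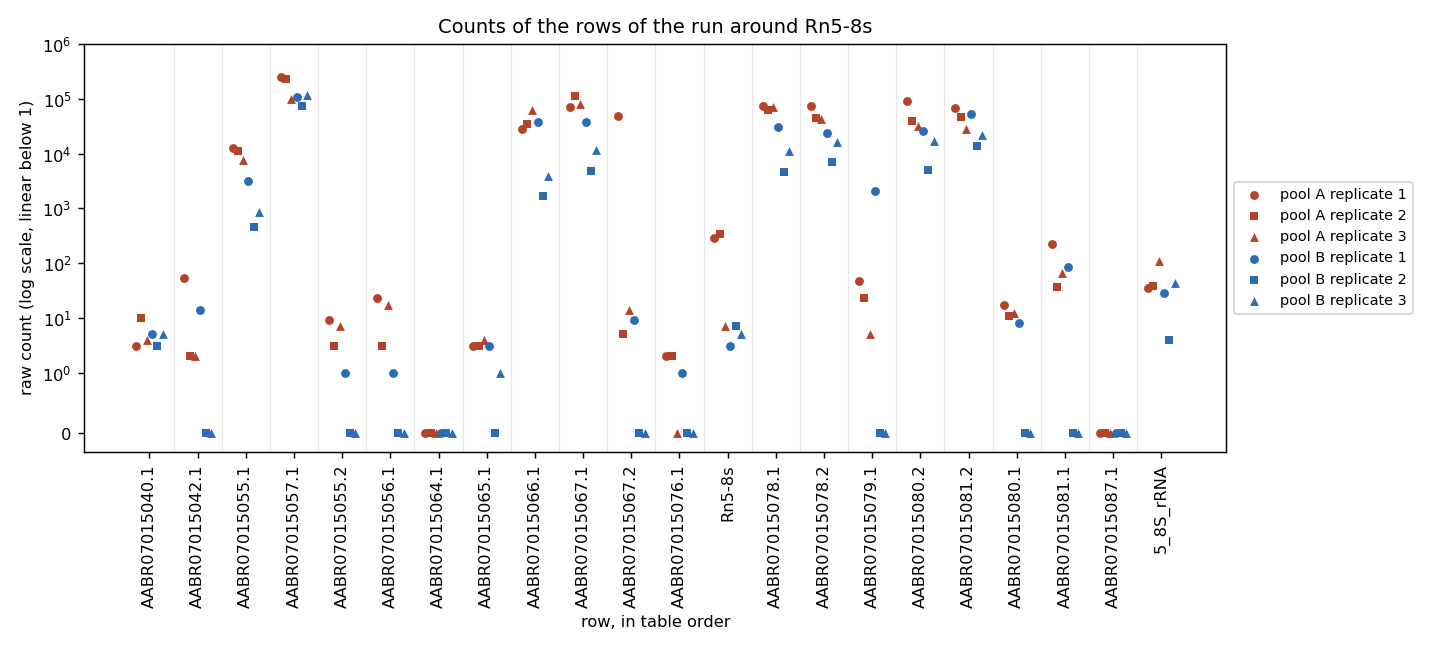
Raw counts (vertical axis, logarithmic above 1 and linear below) of the 22 run rows in table order, 1 point per library. The 8 abundant rows stand in 4 adjacent pairs with low rows between them. AABR07015067.2 and AABR07015079.1 each have 1 point far above the others.

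The rows that carry the name of 5.8S RNA contributed little. Rn5-8s and the 40 rows named 5_8S_rRNA together had 837, 659 and 652 counts with pool A and 353, 65 and 92 with pool B. This was between 0.0465% and 0.154% of the members' counts. Rn5-8s, the only copy with a gene symbol, had 289, 334 and 7 counts in pool A replicates 1, 2 and 3. In pool B it had 3, 7 and 5 counts. Its level was thus 78.4 and 132.1 CPM in a pair of pool A libraries, and from 1.02 to 3.83 CPM in the other 4 libraries, pool A replicate 3 included. The edgeR log2 fold change of 5.26 ± 0.80 (SE) averages over this split within pool A, and it was 4.45 without replicate 2 and 5.85 without replicate 3 of that pool. With limma-voom it was 3.83.

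Of the 40 rows named 5_8S_rRNA, 33 are listed at 0 in every library, where 0 allows up to 3 counts, or between 0.814 and 1.64 CPM. Another row had a single count in all libraries together. The remaining 6 had at least 10 counts in total. Many copies sit side by side, with 19 of the 40 directly next to another.

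The most abundant copy (ENSRNOG00000051831) had 59.7, 70.8 and 82.8 CPM with pool A and 58.3, 20.8 and 10.6 CPM with pool B. Its ranges did not overlap, but pool B replicate 1 nearly reached the lowest pool A library. Next came ENSRNOG00000056172, with 70.5, 36.8 and 70.6 CPM with pool A and 45.3, 8.76 and 5.30 CPM with pool B. Here pool B replicate 1 lay above pool A replicate 2, so the ranges overlapped. The copy inside the run (ENSRNOG00000059394) had 9.50, 15.0 and 34.5 CPM with pool A and 9.88, 2.19 and 16.6 CPM with pool B, also with overlap. In this last copy the highest pool B library was replicate 3, unlike the 2 copies before it.

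ENSRNOG00000053888 had 12, 13 and 18 counts with pool A and 5, 0 and 1 with pool B. ENSRNOG00000058725, directly before ENSRNOG00000056172 in the table, had 19, 1 and 26 counts with pool A and 5, 0 and 0 with pool B. The low count in pool A replicate 2 was shared by these neighbours. ENSRNOG00000058896 had at most 2 counts with pool A and 7, 0 and 0 with pool B. These 3 copies were too low for the expression filter. All 40 together made up 0.0160% ± 0.0038 (SD, n = 3) of a pool A library and 0.0061% ± 0.0050 (SD, n = 3) of a pool B library. Pool B replicate 1 had 0.0119%, and without it the pool B mean was 0.0032%.

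**Figure D3:**
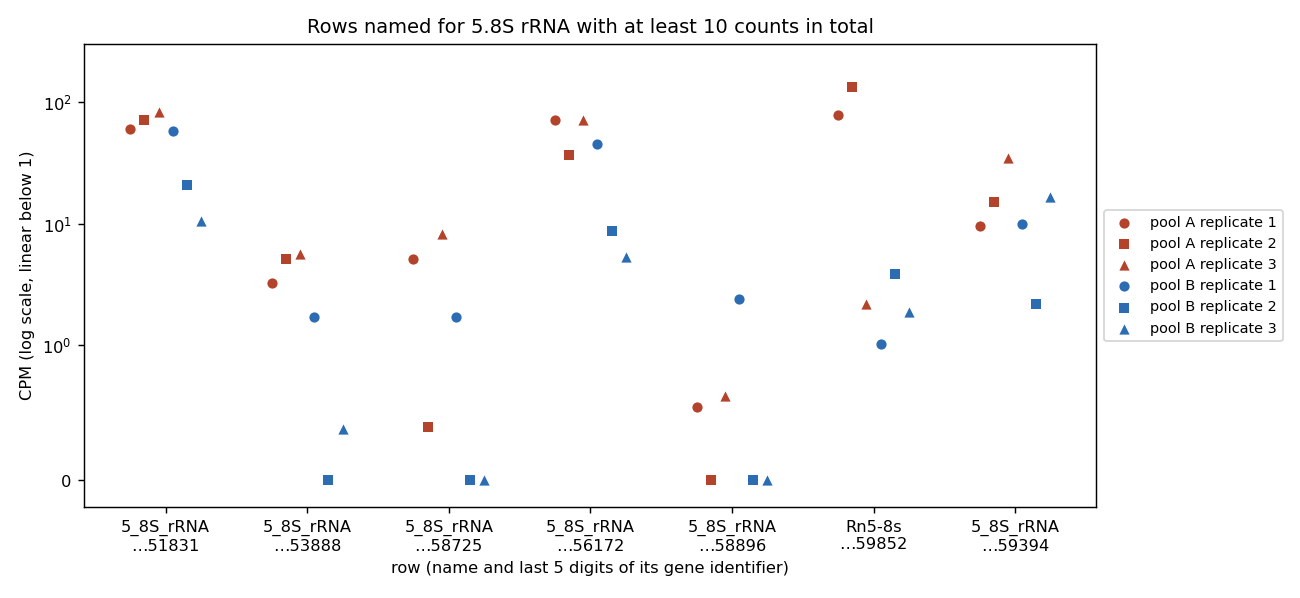
CPM (vertical axis, logarithmic above 1 and linear below) of Rn5-8s and of the 6 rows named 5_8S_rRNA with at least 10 counts in total, 1 point per library. In 5 of the 6 copies named 5_8S_rRNA, pool B replicate 1 (blue circles) lies above the other pool B libraries, and Rn5-8s is high in pool A replicates 1 and 2 only.

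For comparison, 5S RNA, the ribosomal RNA that RNA polymerase III transcribes from separate loci, summed over its 287 rows to 26.2 ± 3.2 CPM (SD, n = 3) in pool A libraries against 29.3 ± 7.3 CPM (SD, n = 3) in pool B libraries.

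AABR07015057.1, the most abundant row of the whole table, differed from the other 7 abundant run rows in its pattern within pool B. It held 67433, 90629 and 31338 CPM with pool A and 37261, 40191 and 43441 CPM with pool B. Pool A replicate 3 was the lowest of all 6 libraries, so the ranges overlapped. Within pool B the highest library was only 1.17 times the lowest, against 2.89 times within pool A. Its share of the run's counts was 34.8%, 39.6% and 23.6% with pool A and 33.7%, 66.2% and 58.0% with pool B. Without it, the run took up 12.2% ± 1.9 (SD, n = 3) of a pool A library and 4.17% ± 2.78 (SD, n = 3) of a pool B library.

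AABR07015067.1 had 18902, 44874 and 24815 CPM with pool A and 12854, 2674 and 4347 CPM with pool B. All pool A values were above all pool B values, and its log2 fold change was 2.32 ± 0.36 (SE), or 3.23 without pool B replicate 1. AABR07015078.1 had 20323, 24271 and 22076 CPM with pool A and 10226, 2547 and 4258 CPM with pool B, again without overlap. It was the steadiest of the 8 abundant rows within pool A, with a highest library 1.19 times the lowest.

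AABR07015078.2, on the same contig by its name, had 19661, 17278 and 13478 CPM with pool A and 8181, 3851 and 6168 CPM with pool B. For each 100 counts of AABR07015078.1 it had between 61.1 and 96.7 counts with pool A and 80.0 in pool B replicate 1. In pool B replicates 2 and 3 the ratio was turned, at 151.2 and 144.8 counts.

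AABR07015081.2 had 18526, 18173 and 8668 CPM with pool A and 18238, 7483 and 8348 CPM with pool B. The ranges overlapped almost fully, and its log2 fold change of 0.58 ± 0.27 (SE) was the smallest in size among the tested members over all 6 libraries. Without pool B replicate 1 it was 1.10, above the 0.77 of AABR07015057.1. Pool B replicate 1 sat with the upper pool A libraries, and pool A replicate 3 with the lower pool B libraries.

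The remaining 3 abundant rows were singled out after their values had been seen. AABR07015066.1 had 7763, 13747 and 19796 CPM with pool A and 12968, 930.2 and 1499 CPM with pool B. It spanned 13.9-fold within pool B, the widest of the 8 rows, and pool B replicate 1 lay inside the pool A range. AABR07015080.2 had 24352, 15469 and 10074 CPM with pool A and 8950, 2793 and 6449 CPM with pool B. AABR07015055.1 had 3375, 4333 and 2392 CPM with pool A and 1080, 253.5 and 327.6 CPM with pool B. In this pair of rows the ranges did not overlap.

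Pool B replicate 1 stood apart in the run. In 7 of the 8 abundant rows it was the highest pool B library and replicate 2 was the lowest; AABR07015057.1 was the exception, with replicate 3 highest and replicate 1 lowest. Relative to the mean of pool B replicates 2 and 3, replicate 1 was 0.891-fold in AABR07015057.1 and between 1.63-fold and 10.7-fold in the other 7 rows. The table has 308 rows that reached 10 counts in each library and a mean of at least 1000, and over them the same ratio had a median of 0.949. Across all tested rows, pool B replicate 1 correlated with the other pool B libraries at r of 0.929 and 0.937 and with pool A libraries at 0.796 to 0.802. The source of its high values in the run was not tested. With pool B replicate 1 left out, the run's mean share with pool B was 6.78%. The run without AABR07015057.1 had a mean of 41742 CPM over the 3 pool B libraries and of 25978 CPM over replicates 2 and 3.

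Pool A showed no such single library. Across the 8 abundant rows, the highest pool A library was replicate 2 in 4 rows, replicate 1 in 3 rows and replicate 3 in 1 row. The lowest was replicate 3 in 5 rows and replicate 1 in 3 rows. The abundant rows therefore did not rise and fall together among pool A libraries. Replicate 3, for example, was lowest for AABR07015057.1 and highest for AABR07015066.1.

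A pair of rows had nearly all their counts in 1 library. AABR07015067.2 had 49091 counts in pool A replicate 1, or 1.33% of that library, and 5 and 14 counts in the other pool A libraries. With pool B it had 9, 0 and 0 counts. Its level in pool A replicate 1 was 3033 times that of the next library, a ratio that rests on 14 counts there. On the same contig by name, AABR07015067.1 had no such peak: it had its lowest pool A level in that library. AABR07015079.1 had 2110 counts in pool B replicate 1 and none in replicates 2 and 3, against 48, 23 and 5 counts with pool A, which is 55.2 times the next library.

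No other row of the table showed this. Of 6244 rows with at least 100 counts in a library, 15 of them members, only these 2 (0.0320%) had a library at 20 times the next or more, and the largest ratio among the others was 5.67. Both rows were found by their values, so this is a description. AABR07015067.2 failed the expression filter, which asks for a minimum level, and not just a count, in 3 libraries. For AABR07015079.1 the edgeR log2 fold change of -4.77 ± 1.11 (SE) rests on pool B replicate 1 alone: without it, pool B has no count. Leaving both rows out changed the run's share to 18.1% with pool A and 8.18% with pool B.

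Of the rows of the run with a count in some library, 8 were at 0 in both pool B replicates 2 and 3, and all 8 had a count in replicate 1, though 3 of them (AABR07015055.2, AABR07015056.1 and AABR07015076.1) had a single one there. Other low rows did not share this: with pool B, Rn5-8s had 3, 7 and 5 counts, AABR07015040.1 had 5, 3 and 5, and ENSRNOG00000059394 had 29, 4 and 44. Of the 8 rows at 0 in both replicates, 6 had at least 10 counts in a pool A library. AABR07015081.1 had 225, 36 and 65 counts with pool A and 84, 0 and 0 with pool B. AABR07015042.1 had 53, 2 and 2 counts with pool A and 14, 0 and 0 with pool B. Its counts thus lay mainly in replicate 1 of each pool. AABR07015080.1 had 17, 11 and 12 counts with pool A and 8, 0 and 0 with pool B, and AABR07015056.1 had 23, 3 and 17 against 1, 0 and 0. AABR07015055.2 and AABR07015076.1 had at most 9 counts anywhere, and the 8 include both single-library rows. AABR07015065.1, with at most 4 counts anywhere, was not among them.

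In 5 contigs the run held 2 rows. In 4 of these pairs one row was abundant and the other far lower in most libraries. AABR07015055.1 had 12441 counts in pool A replicate 1 and AABR07015055.2 had 9. AABR07015080.2 had 89757 counts there and AABR07015080.1 had 17. AABR07015081.2 had 68286 and AABR07015081.1 had 225. The contig of AABR07015067.1 had this shape in all libraries but pool A replicate 1, and in the contig of AABR07015078.1 both rows were abundant throughout.

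The profile of the run, the log2 CPM of its 22 rows, was alike in broad shape in all libraries. Pearson's r across the rows was between 0.899 and 0.974 within pool A, between 0.924 and 0.995 within pool B and between 0.864 and 0.975 between pools. Over the 8 abundant rows alone it was between 0.729 and 0.892 within pool A, between 0.868 and 0.986 within pool B and between 0.646 and 0.983 between pools. Pool B replicates 2 and 3 formed the closest pair in both. Over the 8 rows, pool B replicate 1 had r of 0.868 and 0.879 with its own pool and 0.841 to 0.869 with pool A. Spearman's rho over the 8 rows ranged from 0.571 to 0.786 within pool A, from 0.548 to 0.976 within pool B and from 0.262 to 0.690 between pools. These are correlations across rows of the same stretch, which share libraries and are no independent replicates.

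In the fit over the whole table, 15 of the 61 members passed the expression filter, 13 of them in the run. At an adjusted p under 0.05, edgeR's quasi-likelihood test called 11 of them in favour of pool A and 1, AABR07015079.1, in favour of pool B. Over all 11582 tested rows, 18.6% were called for pool A and 22.0% for pool B, 40.6% in all. The ranges of CPM did not overlap for 7 of the 15, all with pool A higher, against 18.9% of all tested rows with pool A higher and 30.2% with pool B higher. Since the members were proposed with this contrast known, nothing is read from these counts. Their median log2 fold change was 1.62, and that of all tested rows 0.02. The members' median was 3.63 without pool B replicate 1, over 19 tested members of which 6 then had no count in pool B, and 2.85 with those 6 at their lower bound (3 counts over both pool B libraries). Among single rows, leaving out pool B replicate 1 moved the fold change of AABR07015055.1 from 2.76 to 3.69, of AABR07015066.1 from 1.55 to 3.63 and of AABR07015078.1 from 2.12 to 2.85. With all 6 libraries the fold change of AABR07015066.1 was also 2.69 with the replicate number as a block and 2.31 with limma-voom. Leaving out pool B replicate 1 also moved the copies ENSRNOG00000051831 and ENSRNOG00000056172, from 1.36 and 1.66 to 2.36 and 3.25. Fold changes ranged from 0.58 for AABR07015081.2 to 5.26 for Rn5-8s among the 14 members above 0.

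**Figure D4:**
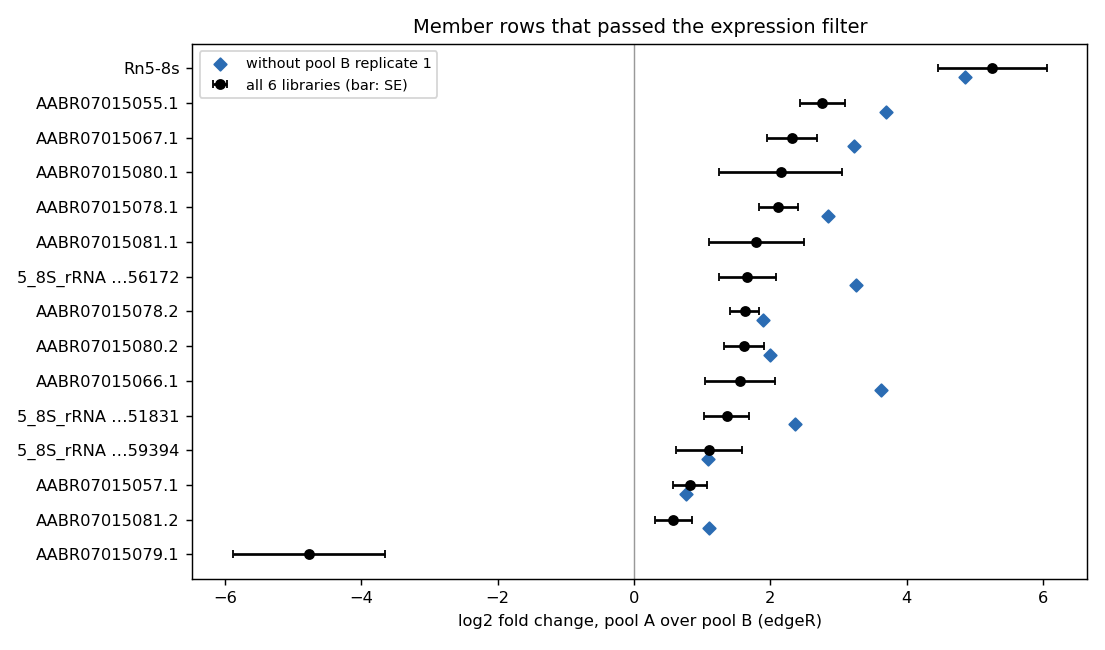
Log2 fold change, pool A over pool B, of the 15 members that passed the expression filter (edgeR; black points with SE bars, all 6 libraries; blue diamonds, without pool B replicate 1). Rows with no count in pool B replicates 2 and 3 have no diamond, since their fitted fold is then not a measured value. AABR07015066.1 moves farthest, to 3.63, while AABR07015057.1 stays near 0.8.

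Rows next to the copies of 5_8S_rRNA elsewhere in the table were examined for the same features, within 5 rows of a copy. This was chosen after the values had been seen. AABR07000398.1, directly beside 1 copy, had 0.203%, 0.223% and 0.164% of the counts with pool A and 0.272%, 0.0407% and 0.0857% with pool B. Pool B replicate 1 was the highest of the 6 libraries here. AABR07063425.2, 4 rows from another copy, had 1455, 1523 and 1357 counts with pool A and 1234, 92 and 414 with pool B. Of the 308 abundant rows, 3 spanned more than 5-fold within pool B: these 2 and AABR07015066.1. All 3 were highest in replicate 1 and lowest in replicate 2.

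AABR07063424.1 and AABR07063425.3, near the same copy, did not share that feature. AABR07063424.1 held 0.342%, 0.338% and 0.227% of the counts with pool A and 0.153%, 0.163% and 0.182% with pool B, or 1.02 ± 0.16 (SE) in log2 (edgeR adjusted p = 1.09e-05). AABR07063425.3 held 0.307%, 0.304% and 0.299% with pool A and 0.159%, 0.149% and 0.0921% with pool B, or 1.34 ± 0.16 (SE) in log2 (edgeR adjusted p = 1.32e-07). AABR07000398.1 did not pass the threshold, at 0.72 ± 0.34 (SE) and an edgeR adjusted p of 0.0996. What these unnamed rows encode is not given in the files. In all, 15 rows with at least 1000 counts in total lay within 5 rows of a copy. Over all tested rows, 18.6% were called for pool A and 22.0% for pool B. Of the 4 contig-named ones, 3 were higher with pool A, AABR07063425.2 among them (1.31 ± 0.35 (SE), edgeR adjusted p = 0.0036), and 1 did not pass. The 11 with other names included 2 higher with pool A, 4 higher with pool B and 5 that did not pass. The abundant LOC100909599 held 0.286%, 0.334% and 0.207% with pool A and 0.223%, 0.486% and 0.229% with pool B, where replicate 2 was the highest library. Jade1, at -1.15 ± 0.14 (SE), and Mier1, at -1.29 ± 0.20 (SE), had the largest differences toward pool B.

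The 5 rows outside the members whose log2 CPM followed the summed run most closely over the 6 libraries, of 9262 rows compared, were Sfr1 (Pearson's r 0.986), Atp11a (0.979), Nmd3 (0.979), Cacna1a (0.978) and Cul1 (0.976). Each had its highest level in pool A replicate 2, for Sfr1 only barely (77.12 CPM against 77.05 CPM in replicate 1), and for Cul1 the pools overlapped. For Nmd3, the adaptor that exports the large ribosomal subunit from the nucleus, levels were 54.3, 64.1 and 38.6 CPM with pool A and 21.5, 14.2 and 18.2 CPM with pool B. The libraries fall into 2 pools, so a shared pool difference alone gives a high r. With TMM-scaled values 3 of the 5 remained among the 5 closest. By Spearman's rho 38 rows tied at 1, 3 of the 5 among them, so rho does not rank them.

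Transcripts of the proteins that make and mature ribosomal RNA were set beside these rows; a gene is said to favour the pool in which it was higher at an edgeR adjusted p under 0.05. Of 110 genes in 6 lists, 107 were found by name and 102 were tested. Past the threshold, 30 (29.4%) favoured pool A and 26 (25.5%) favoured pool B, beside 18.6% and 22.0% of all tested rows, and 46 did not pass. The median of their log2 fold changes was 0.09, beside 0.02 over all tested rows. Members of each list moved in both directions.

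Of 19 tested genes for RNA polymerase I and its factors, 5 favoured pool A and 5 pool B. Rrn3, which recruits polymerase I to the ribosomal promoter, averaged 56.5 ± 8.7 CPM (SD, n = 3) for pool A against 11.8 ± 8.3 CPM (SD, n = 3) for pool B, or 2.49 ± 0.32 (SE) in log2 (edgeR adjusted p = 4.15e-07). Its level was 21.4 CPM in pool B replicate 2 and 6.48 and 7.57 CPM in the other pool B libraries, and without that replicate the log2 fold change was 3.14. Ubtf, the upstream binding factor of ribosomal genes, averaged 895 ± 102 CPM (SD, n = 3) for pool A against 307 ± 19 CPM (SD, n = 3) for pool B, with an edgeR adjusted p of 3.82e-11. Taf1a, a subunit of the promoter selectivity factor, and Polr2f, a subunit shared by the nuclear polymerases, had log2 fold changes of 2.39 ± 0.31 and 1.85 ± 0.26 (SE).

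Among 26 tested genes for cutting and assembling the 5.8S and 28S precursor, 8 favoured pool A and 10 pool B. Las1l, the endonuclease that cuts the spacer between 5.8S and 28S RNA, averaged 290 ± 63 CPM (SD, n = 3) for pool A against 76.5 ± 7.6 CPM (SD, n = 3) for pool B, with an edgeR adjusted p of 1.79e-11. Senp3, which acts with the same complex, was 2.53 ± 0.24 (SE) higher with pool A on the log2 scale. Wdr18, of that complex as well, went the other way, averaging 42.4 ± 11.1 CPM (SD, n = 3) for pool A against 328 ± 47 CPM (SD, n = 3) for pool B, with an edgeR adjusted p of 2.46e-13. Gnl3, a nucleolar GTPase, was also higher with pool B, at a log2 fold change of -1.81 ± 0.16 (SE).

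The exosome, which trims the 3' end of 5.8S RNA, and related nucleases gave 2 genes in favour of pool A and 3 of pool B among 15 tested. Dis3, its processive nuclease, and Isg20l2, a nucleolar exonuclease, had log2 fold changes of 1.18 ± 0.21 and 2.09 ± 0.22 (SE). Exosc8 had one of -1.01 ± 0.27 (SE). Exosc3 had one of -1.57 ± 0.58 (SE; edgeR adjusted p = 0.0310), and lost the call when any of 4 libraries was left out (adjusted p 0.0845 without A1, 0.107 without A3, 0.129 without B1 and 0.0890 without B2).

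For the small subunit processome, which handles the 18S side of the precursor, 8 of 28 tested genes favoured pool A and 5 pool B. Utp3 averaged 580 ± 33 CPM (SD, n = 3) for pool A against 38.0 ± 2.3 CPM (SD, n = 3) for pool B, or 4.08 ± 0.15 (SE) in log2 (edgeR adjusted p = 1.77e-17). Rrp9 and Nop14 had log2 fold changes of 3.29 ± 0.17 and 1.82 ± 0.18 (SE), and Noc4l had one of -1.89 ± 0.25 (SE).

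Of 8 tested proteins of the snoRNPs that guide methylation and pseudouridylation of ribosomal RNA, 3 favoured pool A and 1 pool B. Fbl, the methyltransferase fibrillarin, averaged 295 ± 34 CPM (SD, n = 3) for pool A against 27.0 ± 14.1 CPM (SD, n = 3) for pool B. Nolc1, a snoRNP chaperone, averaged 249 ± 31 CPM (SD, n = 3) for pool A against 1928 ± 294 CPM (SD, n = 3) for pool B. Gar1 and Nop10 had log2 fold changes of 1.18 ± 0.24 and 1.31 ± 0.41 (SE), and Nop10 lost the call without pool B replicate 1 (edgeR adjusted p 0.0599).

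All 6 nucleolar body proteins passed, 4 in favour of pool A and 2 of pool B, with a median log2 fold change of 1.43. Npm1, nucleophosmin, averaged 4636 ± 433 CPM (SD, n = 3) for pool A against 277 ± 33 CPM (SD, n = 3) for pool B, and Ncl, nucleolin, had a log2 fold change of 3.77 ± 0.16 (SE). Mybbp1a followed at 2.22 ± 0.13 (SE), and the helicase gene Ddx21 had -1.20 ± 0.15 (SE). The medians of the lists for polymerase I, the 5.8S and 28S precursor, the exosome and the processome changed sign under at least 1 alternative setting, so no direction is given for them.

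**Figure D5:**
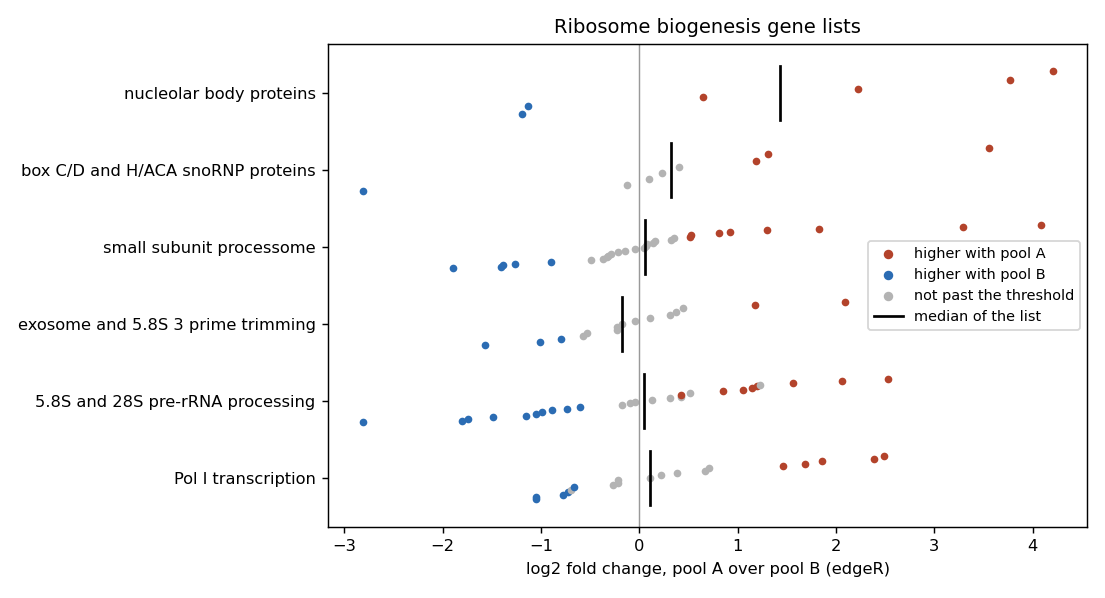
Log2 fold change, pool A over pool B (edgeR), of the tested genes of 6 ribosome biogenesis lists, 1 point per gene, coloured by the direction of the call at an adjusted p under 0.05; black lines are list medians. Points lie on both sides of 0 in every list, and the median of the nucleolar body proteins, 1.43, is the farthest from 0.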

How the data were processed

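The libraries hold RNA retrieved from crosslinked GH4C1 cells by oligo pool A or B, 3 each, with totals between 1826390 and 3685899 counts. The authors deposited a table of raw counts per Ensembl gene, and a mean signal per pool that equals the row mean and was not used. STAR and featureCounts are named in the submitters' processing notes, without versions. The genome build, the annotation and the handling of reads with several matches are not given in the sources used here. Rows were taken in the table's order. Counts were scaled to library totals (CPM). The whole table was fitted with edgeR 4.0.16 in R 4.3.3 (TMM, expression filter by group, quasi-likelihood test, pool as the only term), with Benjamini-Hochberg adjustment over all tested rows and a threshold of 0.05. SE were derived from the F statistic. The fit was also run on simulated data in which a small set of rows was changed, whereas 40.6% of tested rows were called here. That run does not check the fit at so large a share, and nothing is concluded from it. Alternatives were DESeq2 1.42.0, limma-voom 3.58.1, other scalings and filters, a replicate block and leaving out each library. Precision is limited by 3 libraries per pool, since most members have few counts and the abundant ones vary between libraries. Members, lists and tests were chosen with earlier results of these data known. Named were Rn5-8s, the 5 run rows with the largest mean share, rows named 5_8S_rRNA with at least 10 counts in total, and up to 4 called genes per list with the largest fold changes and a mean of at least 10 counts. No sequence of a member was in the references used here.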

Additional observations from a re-analysis of the deposited data

How the results depend on the processing

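The shares of the run without its single-library rows and over rows with 10 counts in every library were added after seeing the data. The median log2 fold change of all tested rows moved to -0.12 with total counts and 0.12 with upper-quartile factors. The run's share was 12.2% with pool A and 4.17% with pool B without AABR07015057.1, and 11.9% and 4.12% over the 5 rows on each side of Rn5-8s. Omitting 1 library gave 16.3% to 21.1% for pool A and 6.78% to 9.27% for pool B. Adding Rn5-8s raised the share of the rows named 5_8S_rRNA with pool A to 0.0231%, and without a library that share ranged from 0.0139% to 0.0176% with pool A and from 0.0032% to 0.0076% with pool B. The share of all rows called is given for the main fit only (18.6% for pool A, 22.0% for pool B). Nothing is therefore read from the counts of called members below. Members called for pool A numbered 17 with no filter (26 tested), 6 with DESeq2, and 11 to 18 without a library. The highest was without pool B replicate 1, over 19 tested members of which 6 then had no count in pool B. Those called for pool B numbered 0 with limma-voom, with DESeq2 (which gave no p for AABR07015079.1), under the filter of 10 counts in every library, and without pool B replicate 1 (0 to 1 over the fits without a library); at an unadjusted p under 0.05 these 4 fits also gave 0. With at least 10 counts in every library, AABR07015079.1 was not tested. Its fold change was 0.22 with limma-voom and between -5.45 and 7.54 without a library, where the upper value has no pool B count and is no bound; all other refits of members, 217 of 219, kept their direction. In the row profile, the lowest r was 0.729 within pool A, 0.868 within pool B and 0.646 between pools over rows with 10 counts in every library. Over all 22 rows with 1 library omitted, the lowest r was 0.899 to 0.974 within pool A (highest when A1 was omitted), 0.924 to 0.995 within pool B (B1) and 0.864 to 0.942 between pools (A1). The highest r between pools ranged from 0.971 to 0.975. Of the 5 rows most like the run, 3 were among the 38 rows tied at the highest Spearman's rho and 3 remained with TMM-scaled values. Genes of the biogenesis lists called in each direction stayed within 1.5 times 30 and 26 in all settings. Without a library they ranged from 27 to 30 and from 23 to 26. Of 359 refits of named list genes, 354 kept their direction and call. The cause of these changes was not tested, apart from those that follow from fewer rows or libraries.

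With the replicate number as a block, 13 members were called for pool A and 1 for pool B. The block moved the fold changes of AABR07015066.1 to 2.69, AABR07015079.1 to -3.63 and AABR07015081.1 to 2.74, and limma-voom gave 3.83 for Rn5-8s, 2.31 for AABR07015066.1, 3.18 for AABR07015080.1 and 4.58 for AABR07015081.1. Deviations of same-numbered libraries correlated at r of 0.0410, -0.0202 and 0.0194, and those of other pairs at -0.0412 to 0.0233. These values show no pairing by number, but with 3 libraries per pool they cannot decide whether one exists. Not every library correlated best with its own number.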
